A study of Mus musculus with 10 samples.

Results

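Solute carriers are membrane proteins that move amino acids, sugars, metals, ions, nucleosides, peptides and metabolites across the plasma membrane or the membranes of lysosomes, mitochondria and the Golgi. In phagocytes they feed the cell, carry the products of digestion out of lysosomes and supply cystine for glutathione synthesis. Some work with a partner: the light chains of the amino acid exchangers reach the cell surface bound to the heavy chain encoded by Slc3a2. LysoDCs are lysozyme-expressing, monocyte-derived phagocytes of Peyer's patches, the lymphoid follicles of the small intestine, and cDC2s are conventional dendritic cells of type 2.

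The solute carrier genes described here were chosen by their level: genes whose symbol starts with Slc and a digit, at 20 CPM (UMIs of a gene per 1000000 UMIs) or more in at least 1 of the 9 hashtagged populations of dataset 1. Slc2a1, Slc2a3, Slc16a1, Slc16a3, Slc40a1 and Slc11a1 were left out by name, and 4 of these 6 were at that level. The rule took 88 of the 376 genes with such a symbol, among 32285 genes in the matrices and 6975 at the same level. Of the 88, 85 encode carriers. The other 3 only carry the name: Slc9a3r1 encodes the scaffold protein NHERF1, Slc4a1ap an adaptor protein, and Slc36a3os is a transcript named for the strand opposite Slc36a3. Because the strand setting of the counting is not given in the sources used here, reads of Slc36a3os and of genes overlapping it cannot be told apart.

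The cells were sorted from female C57BL/6Rj mice and profiled by droplet-based 3′ single-cell RNA sequencing with hashtag antibodies. From untreated mice, Peyer's patches gave follicular, immature, intermediate and mature LysoDCs and maturing and immature cDC2s (30 pooled mice in dataset 1, and LysoDCs from 20 in dataset 2). Blood gave CD115hi cells without Ly6C and CD43, called DN here (double negative), CD43+ monocytes and Ly6C+ monocytes, from 20 and 18 pooled mice that had received clodronate liposomes 9 days earlier, a treatment chosen to raise the number of DN cells. Tissue against blood, enzymatic digestion and clodronate cannot be told apart in any comparison of LysoDCs with blood cells. In dataset 2 the LysoDC hashtags are not assigned to subsets, and each blood population came in libraries of its own (DN cells in 2, sorted as CCR2+ and CCR2- fractions, which are added up here), so that library and population cannot be told apart there.

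Raw UMI counts were summed over the cells of each population, which makes 1 sum per population and dataset. The sums held between 261 and 4971 cells and between 2022332 and 28778760 UMIs, and the 4 LysoDC gates of dataset 1 were also added up. Median depth per cell was 7388 to 14279 UMIs in Peyer's patch cells of dataset 1 and 8999 in LysoDCs of dataset 2, against 2312 to 5920 in blood cells. Summed C1q chains, which mark LysoDCs, stood at 17531 and 16360 CPM in LysoDCs of datasets 1 and 2. Blood populations had 5.05% to 5.89% of that level in dataset 1 and 0.583% to 1.19% in dataset 2, and maturing and immature cDC2s had 17.7% and 3.46%. These shares are given as the level that LysoDC RNA outside LysoDCs could reach. The summed cDC2 marker list (Sirpa, Cd209a, Clec10a, Flt3, Zbtb46, Dpp4 and Kmo) did not separate the gates, with 611 and 658 CPM in maturing and immature cDC2s and 602 to 688 CPM in the LysoDC gates, as Sirpa and Dpp4 made up most of the sum in LysoDCs. Flt3 did, with 66.3 and 104 CPM in maturing and immature cDC2s and 0.797 to 8.01 CPM in the LysoDC gates, and so did Zbtb46 (46.98 and 63.3 CPM, against 1.94 to 7.03) and Kmo (67.7 and 69.04 CPM, against 4.33 to 22.1). In DN cells the Ly6C+ monocyte markers summed to 1360 and 781 CPM, against 5070 and 4054 in Ly6C+ monocytes, and the CD43+ monocyte markers to 358 and 176 CPM, against 3179 and 3354 in CD43+ monocytes. There were 37 barcode sequences in both datasets.

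The highest CPM of a member in dataset 1 ran from 20.8 to 428, with a median of 46.3. Just inside the threshold lay Slc25a20 at 20.8 CPM, Slc35b4 at 21.2 and Slc43a3 at 21.3, and just outside it Slc7a4 at 19.9, Slc30a7 at 19.4 and Slc25a25 at 19.4. Of the 88, 27 were at 20 CPM or more in all 9 populations and 10 in a single population. Classes follow the family number in the symbol and not the known substrate of each carrier. By class, the list held 18 mitochondrial carriers, 17 amino acid transporters, 13 transporters of divalent metals, 11 of ions and pH, 10 nucleotide sugar and other family 35 transporters, 4 each for sugars, for peptides and lysosomal exporters and for organic ions, vitamins, choline and lipids, and 2 each for nucleosides and monocarboxylates. As 3′ UMI counts do not grow with transcript length, these levels are counts of captured molecules and were not divided by length.

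The most abundant members were housekeeping carriers of mitochondria. Slc25a5, an ADP/ATP carrier, reached 428 CPM in Ly6C+ monocytes of dataset 1, and Slc25a3, the phosphate carrier, was at 263 to 403 CPM in all 9 populations. Slc25a5 and its paralog Slc25a4 have near-identical copies in the genome, so their counts are uncertain. Outside mitochondria the class leaders of dataset 1 were Slc44a2 with 269 CPM and Slc12a2 with 183 CPM in CD43+ monocytes, Slc38a2 with 266 CPM in immature cDC2s, Slc15a3 with 244 CPM in follicular LysoDCs and Slc2a6 with 148 CPM in immature LysoDCs. Lower leaders were Slc29a3 with 80.1 CPM in Ly6C+ monocytes, Slc35c2 with 76.8 CPM in CD43+ monocytes, Slc31a2 with 73.3 CPM in follicular LysoDCs and Slc16a6 with 47.2 CPM in immature cDC2s. The peak fell in CD43+ monocytes for 28 members, in 1 of the 4 LysoDC gates for 34, in immature cDC2s for 12, in Ly6C+ monocytes for 10 and in DN cells for 4.

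**Figure D1:**
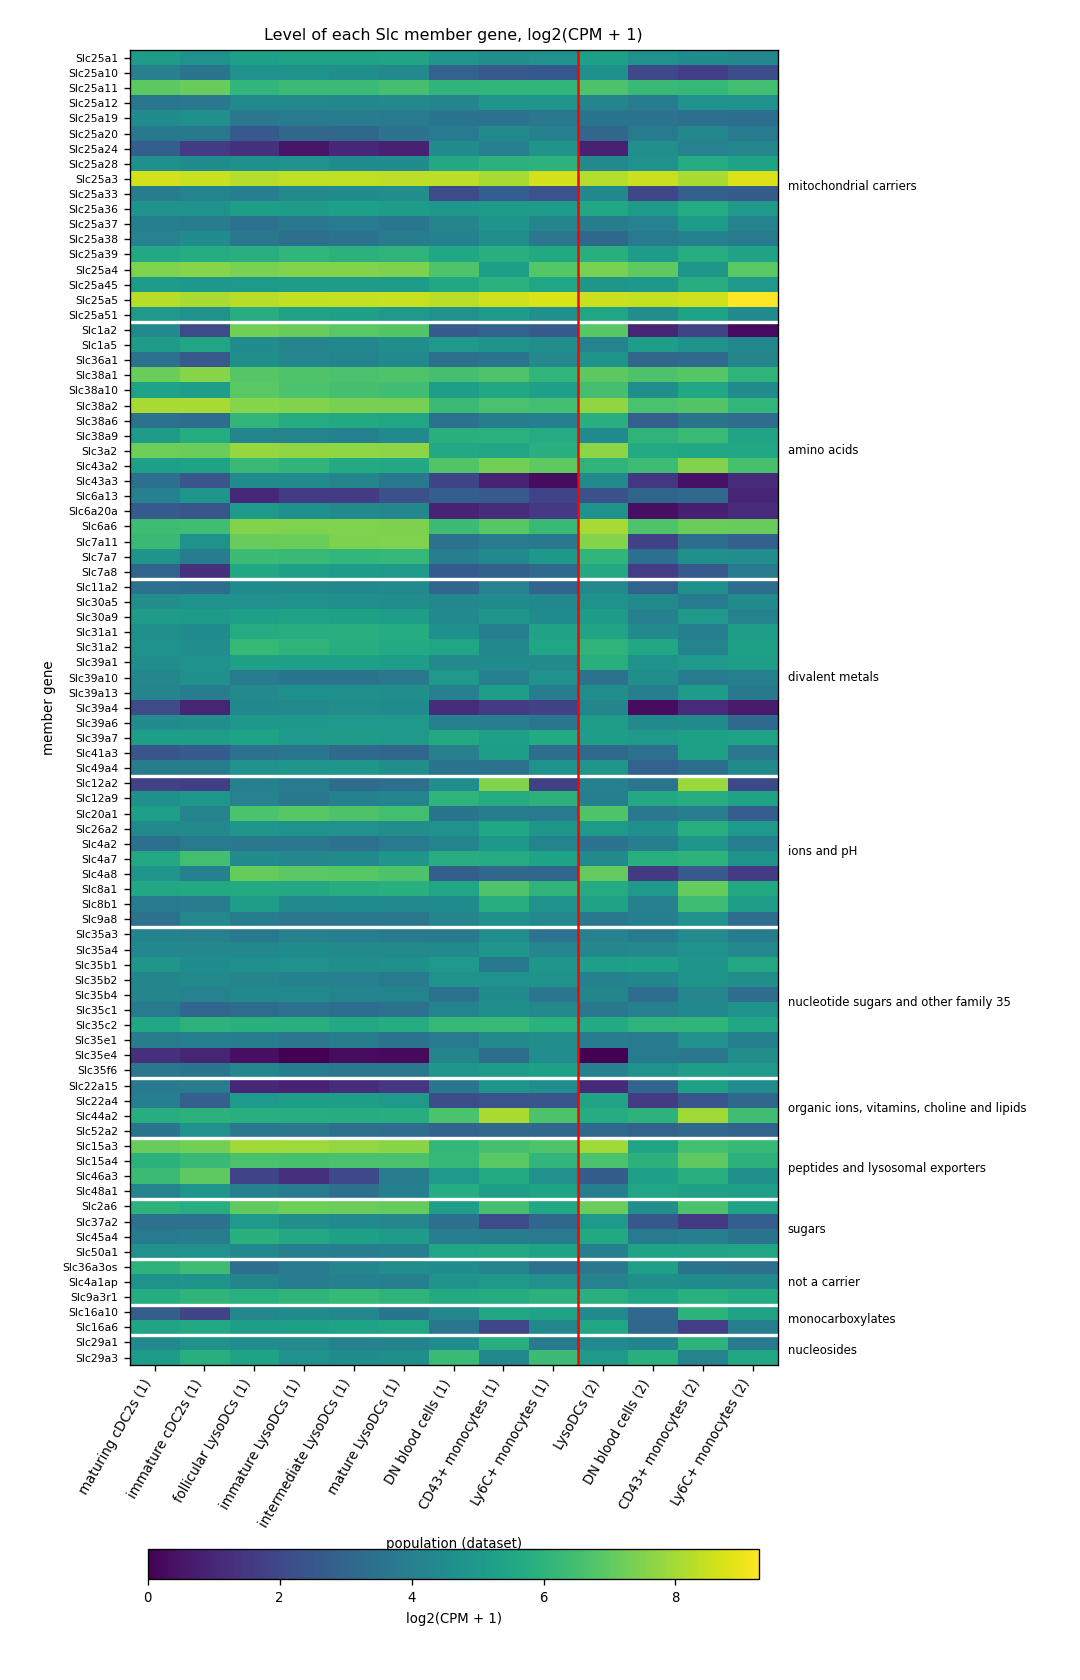
Heat map of log2(CPM + 1) of the members reported (rows, grouped by class) in the 9 populations of dataset 1 and, right of the red line, the 4 populations of dataset 2. The LysoDC columns are alike, while Slc1a2, Slc4a8, Slc7a11 and Slc20a1 are bright in LysoDC columns and dark in blood, and Slc12a2 is bright in the CD43+ columns.

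Slc genes of this level varied more among populations than genes of the same level in general, as a description: the highest level in dataset 1 was a median of 3.40 times the lowest, against 2.40 over all 6975 genes. For 75 members the ratio was 2 or more, for 28 it was 5 or more and for 16 it was 10 or more. Within the 4 LysoDC gates the members hardly varied, with a median highest over lowest of 1.27 and 81 of 88 under 2. The summed level of all members was 4495 and 4782 CPM in LysoDCs, 3286 and 3079 in DN cells, 4106 and 4422 in CD43+ monocytes and 3623 and 3545 in Ly6C+ monocytes (datasets 1 and 2). Dataset 2, which did not choose the members, gave the same leading population among LysoDCs, DN cells, CD43+ and Ly6C+ monocytes for 70 of 88 members (79.5%), against 78.4% of all genes at the level of the rule. That held for 36 of 39 members led by LysoDCs and 26 of 30 led by CD43+ monocytes, but for 4 of 8 led by DN cells and 4 of 11 led by Ly6C+ monocytes.

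LysoDCs were compared with the mean of both monocyte types. For fitted changes this is the mean of the log2 levels. Monocyte shares in percent and the 20 CPM limit for monocytes use the mean of the CPM values. Amino acid transporters were mostly higher in LysoDCs, as were transporters of divalent metals. With edgeR's quasi-likelihood test and Benjamini-Hochberg adjustment over all 11458 genes tested, 40 of 88 members were higher and 26 lower, and 22 did not pass. Over all genes tested, 29.9% were higher and 27.4% lower, and over genes at the level of the rule 31.1% and 32.8%. The median log2 change was 0.32 over the members, 0.01 over all genes and -0.04 over genes at that level. Because a member high in LysoDCs alone enters the list through LysoDCs, the count is a description. So are the test values of members under 20 CPM in all blood cells of dataset 1, such as Slc1a2, Slc7a11, Slc4a8 and Slc20a1. Among members at 20 CPM or more in both LysoDCs and monocytes of dataset 1, 20 were higher, 7 lower and 11 did not pass. The share of all genes under that limit was not computed. Counts under it, also by class and against DN cells, are therefore a description. Each population has 2 pools of mice, so p-values measure the spread between pools of this study, and a higher share of expressing cells cannot be told apart from more RNA per cell.

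Among amino acid transporters 13 of 17 were higher in LysoDCs than in monocytes and 2 lower, and 12 were higher and 4 lower than in DN cells. As classes follow family numbers, the 17 include Slc43a3, described below, and leave out any amino acid carrier placed in another class. Of the 7 at 20 CPM or more in both LysoDCs and monocytes of dataset 1, 6 were higher and 1 lower. The family starts with glutamate and cystine. Slc1a2 (GRCm38 chr2:102658659-102790784, plus strand) is the glutamate transporter GLT-1, best known from astrocytes. It had 127 and 115 CPM in LysoDCs of datasets 1 and 2, against 5.34 and 0.938 in DN cells, 6.64 and 2.70 in CD43+ monocytes and 5.34 and 0.192 in Ly6C+ monocytes. LysoDCs stood far above the blood cells in both datasets. The log2 change was 5.50 ± 0.63 (SE) against monocytes (adjusted p = 0.00255) and 5.81 ± 0.73 against DN cells (adjusted p = 0.00389). The monocyte mean was 4.70% and 1.26% of the LysoDC level, close to the share of C1q RNA in blood, so the blood level is not read as expression and the folds are not read as exact.

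Slc7a11 (chr3:49892526-50443614, minus strand) encodes xCT, the light chain of the exchanger that imports cystine for glutamate. It had 161 and 185 CPM in LysoDCs, against 10.2 and 2.54 in DN cells, 12.9 and 9.24 in CD43+ monocytes and 12.4 and 6.16 in Ly6C+ monocytes. No blood value came near those of LysoDCs, and blood monocytes held 7.86% and 4.15% of the LysoDC level, above the C1q share in both datasets. The log2 change against monocytes was 4.36 ± 0.42 (adjusted p = 0.000886), and against DN cells it was 5.16 ± 0.53 (adjusted p = 0.00123). Its heavy chain partner Slc3a2 (CD98; chr19:8706882-8723369, minus strand), named here for that role, had 209 and 201 CPM in LysoDCs, against 47.3 and 50.4 in DN cells, 44.4 and 45.8 in CD43+ monocytes and 58.0 and 46.2 in Ly6C+ monocytes. Here too the groups did not overlap, but DN cells and monocytes kept 22.7% to 25.1% of the LysoDC level, and the log2 change was 2.27 ± 0.12 against monocytes (adjusted p = 1.14e-07).

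Because both chains of the exchanger were higher in LysoDCs, the 250 bases before the RefSeq start of each gene are shown, on GRCm38.p6. For Slc3a2 that start lies inside the longer span given above, so the bases before the outer end of that span are not shown. They were searched on both strands for TGATGNAA, a form of the C/EBP-ATF element through which amino acid shortage is known to act on genes such as Slc7a11, and for TGACNNNGC, the core of the antioxidant response element. Capitals mark matches of TGATGNAA, the motif with matches in these 2 windows. The Slc7a11 window is chr3:50443614-50443863 on the minus strand, and the Slc3a2 window is chr19:8713898-8714147 on the minus strand.
Slc7a11: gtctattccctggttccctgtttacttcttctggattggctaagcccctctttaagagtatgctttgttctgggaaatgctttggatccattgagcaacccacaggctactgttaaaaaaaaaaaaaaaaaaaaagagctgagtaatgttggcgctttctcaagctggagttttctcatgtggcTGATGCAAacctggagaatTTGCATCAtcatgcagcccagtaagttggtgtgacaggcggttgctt
Slc3a2: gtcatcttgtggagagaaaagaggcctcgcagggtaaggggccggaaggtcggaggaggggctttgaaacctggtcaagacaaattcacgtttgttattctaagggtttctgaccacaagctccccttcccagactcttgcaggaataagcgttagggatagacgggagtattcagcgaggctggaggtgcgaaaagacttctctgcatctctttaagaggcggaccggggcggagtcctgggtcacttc

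In Slc7a11 the 2 matches start 66 and 47 bases before the RefSeq start and face each other. Slc3a2 held no match of either motif in its window, which says nothing of other starts of the gene. Promoters were found for 68 of the 88 members. TGATGNAA was present in 3.45% of the 32851 promoters of the table and in 5 of 88 promoters of the members (some genes have several), those of Slc7a11, Slc7a7, Slc49a4 and Slc50a1. TGACNNNGC was present in 10.2% of all promoters and in 17 of 88 of the members' promoters. A match is a string of letters and not a binding site.

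Other genes of the amino acid response, from a list chosen with earlier results of these data known gave counts near the background. Of 10 tested of 15, 2 were higher and 3 lower in LysoDCs than in monocytes, where 29.9% and 27.4% of all genes tested were, with a median log2 change of -0.03. Atf4, the transcription factor that drives the response, had 35.97 and 44.1 CPM in LysoDCs, against 53.7 to 73.9 in the 6 blood sums, and its log2 change against monocytes was -0.52 ± 0.12 (adjusted p = 0.00308). Sesn2, a brake on mTORC1, was higher (1.11 ± 0.19, adjusted p = 0.000575), whereas the classical targets Asns, Trib3 and Chac1 were at or under 2.31 CPM in all 8 sums and were not tested. These are levels of RNA and not of protein, and the part of this response in the level of Slc7a11 was not tested.

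Sodium-coupled neutral amino acid transporters of family 38 split. Slc38a6 had 51.9 and 56.4 CPM in LysoDCs, against 10.3 and 6.25 in DN cells, 13.7 and 10.8 in CD43+ monocytes and 15.05 and 9.04 in Ly6C+ monocytes. It met the rule in LysoDC gates alone, so no test is given. Slc38a2 (SNAT2) was 1.26 ± 0.13 higher than in monocytes on the log2 scale (adjusted p = 1.45e-05), and Slc38a10 was 1.59 ± 0.14 higher (adjusted p = 3.4e-06). The exception was Slc38a9, the arginine-sensing carrier of the lysosomal membrane that signals to mTORC1, with 17.1 and 21.0 CPM in LysoDCs, against 58.1 and 64.1 in DN cells, 59.4 and 78.2 in CD43+ monocytes and 51.7 and 41.9 in Ly6C+ monocytes. Its log2 change was -1.40 ± 0.15 against monocytes (adjusted p = 1.66e-05) and -1.63 ± 0.16 against DN cells (adjusted p = 1.09e-05), and it was lower in LysoDCs in both datasets.

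Other light chains that pair with Slc3a2 were also higher. Slc7a7, the exchanger of cationic for neutral amino acids, had 73.4 and 67.02 CPM in LysoDCs, against 14.7 and 9.38 in DN cells, 20.3 and 23.9 in CD43+ monocytes and 29.9 and 22.5 in Ly6C+ monocytes (log2 change against monocytes 1.73 ± 0.15, adjusted p = 3.41e-06). Slc7a8, the neutral exchanger LAT2, had 35.9 and 47.1 CPM in LysoDCs, against at most 13.3 CPM in any blood sum. Slc6a6, the taurine transporter, had 178 and 264 CPM in LysoDCs, against 74.8 to 147 in the blood sums, and was 1.09 ± 0.14 higher (adjusted p = 6.14e-05).

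Some weaker amino acid carriers were also far higher in LysoDCs. They lie under the 50 CPM floor of the naming rule and are named after their values were seen. Slc6a20a, a proline transporter, had 23.01 and 25.8 CPM in LysoDCs, against at most 1.94 CPM in any blood sum. Slc43a3, placed with the amino acid carriers by family although it is known to carry purine nucleobases, had 18.3 and 20.5 CPM, against at most 2.87 CPM in blood. Both met the rule in LysoDC gates alone, so no test is given. The monocyte mean of Slc43a3 was 2.93% and 3.76% of the LysoDC level, below the C1q share in dataset 1, and is not read as expression. The neutral amino acid carrier Slc43a2 ran the other way, with 58.2 and 64.4 CPM in LysoDCs, against 108 and 82.4 in DN cells, 156 and 184 in CD43+ monocytes and 125 and 93.9 in Ly6C+ monocytes. All blood values were above those of LysoDCs, and the log2 change against monocytes was -0.97 ± 0.14 (adjusted p = 0.000157). Against DN cells it was -0.56 ± 0.15 (adjusted p = 0.0103), and without the DN sum of dataset 1 it no longer passed (adjusted p = 0.0763; 0.00217 to 0.103 over the alternatives).

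**Figure D2:**
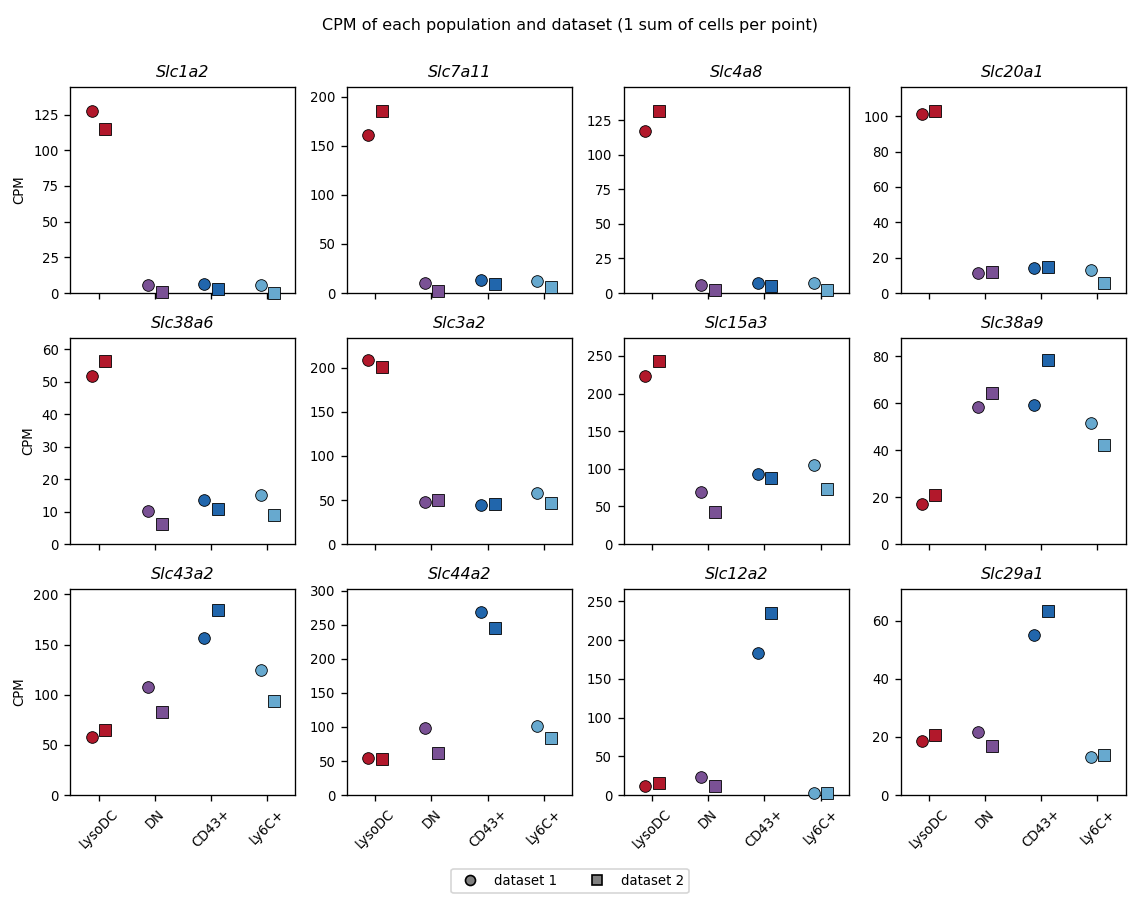
CPM of 12 members in LysoDCs, DN blood cells, CD43+ monocytes and Ly6C+ monocytes, circles for dataset 1 and squares for dataset 2, each point 1 sum of cells, on linear axes from 0. Slc1a2 at 127 and 115 CPM in LysoDCs lies far above blood, Slc38a9 and Slc43a2 lie lowest in LysoDCs, and Slc12a2 at 183 and 235 CPM marks CD43+ monocytes.

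Among transporters of divalent metals 9 of 13 were higher in LysoDCs than in monocytes and 2 lower (9 higher and 1 lower against DN cells). Slc49a4 is among the 13 by its family number and not by a known metal substrate. Of the 7 at 20 CPM or more in both LysoDCs and monocytes of dataset 1, 5 were higher and none lower. The copper importer Slc31a1 had 53.8 and 42.2 CPM in LysoDCs, against 24.4 and 20.2 in DN cells, 14.9 and 15.02 in CD43+ monocytes and 39.1 and 35.01 in Ly6C+ monocytes, a log2 change against monocytes of 1.21 ± 0.14 (adjusted p = 3.27e-05). Its relative Slc31a2 had 59.1 and 63.7 CPM in LysoDCs, against 17.3 to 46.5 in blood (1.35 ± 0.13, adjusted p = 6.77e-06). The zinc importer Slc39a4 (ZIP4), known from enterocytes, had 21.3 and 18.0 CPM in LysoDCs, against at most 2.43 CPM in any blood sum, and was named after its values were seen. It met the rule in intermediate and mature LysoDCs alone, so no test is given. The epithelial marker Epcam had 12.5 and 8.60 CPM in LysoDCs, and Krt8, Krt18 and Cdh1 had at most 1.09 CPM each. Through follicular, immature, intermediate and mature LysoDCs, Epcam had 1.41, 1.71, 6.46 and 53.4 CPM, and Slc39a4 had 19.3, 19.6, 23.1 and 21.7 CPM. Immature cDC2s had 386 CPM of Epcam and 0.942 CPM of Slc39a4. The part of epithelial RNA in the level of Slc39a4 was not tested. Slc39a10, another zinc importer, was lower (-0.49 ± 0.16, adjusted p = 0.0226). Slc41a3, a magnesium transporter, had 9.18 and 8.19 CPM in LysoDCs, against 34.4 and 36.6 in CD43+ monocytes and 9.22 and 11.9 in Ly6C+ monocytes. It met the rule in CD43+ monocytes alone, so no test is given.

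Transporters of ions held 2 members that were higher and 5 that were lower in LysoDCs than in monocytes, of 11. Over genes at the level of the rule 31.1% were higher and 32.8% lower. Of the 5 at 20 CPM or more in both LysoDCs and monocytes of dataset 1, none was higher and 3 were lower. Slc4a8 (chr15:100761747-100823968, plus strand), a sodium-driven chloride-bicarbonate exchanger, had 117 and 132 CPM in LysoDCs, against 5.99 and 2.02 in DN cells, 7.47 and 5.01 in CD43+ monocytes and 7.28 and 2.12 in Ly6C+ monocytes. Slc20a1, the phosphate importer PiT1, had 102 and 103 CPM in LysoDCs, against 11.1 and 12.1 in DN cells, 14.1 and 14.6 in CD43+ monocytes and 13.1 and 5.77 in Ly6C+ monocytes. Both genes separated LysoDCs from blood in each dataset, with log2 changes against monocytes of 4.81 ± 0.35 (adjusted p = 8.22e-05) and 3.34 ± 0.20 (adjusted p = 8.49e-07). Blood monocytes had 6.28% and 2.70% of the LysoDC level of Slc4a8 and 13.4% and 9.89% of that of Slc20a1, above the C1q share, the first by little in dataset 1. The phosphate exporter Xpr1, from a list of carriers with other names, moved the other way: 14.96 and 22.9 CPM in LysoDCs, against 56.6 to 131 in blood (log2 change -1.93 ± 0.16, adjusted p = 2.36e-06).

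The lower ion transporters included Slc4a7, a sodium bicarbonate cotransporter, with 21.6 and 20.1 CPM in LysoDCs, against 54.0 and 54.8 in DN cells, 51.1 and 62.0 in CD43+ monocytes and 41.02 and 26.7 in Ly6C+ monocytes. LysoDCs were lowest in both datasets, and the log2 change was -1.32 ± 0.18 against DN cells (adjusted p = 0.000131). Slc8a1, the sodium calcium exchanger, had 51.9 and 51.3 CPM in LysoDCs, against 43.5 and 31.1 in DN cells, 105 and 133 in CD43+ monocytes and 64.8 and 48.1 in Ly6C+ monocytes. The LysoDC values overlapped those of Ly6C+ monocytes, lay below those of CD43+ monocytes and above those of DN cells. Its log2 change against monocytes of -0.48 ± 0.15 (adjusted p = 0.0193) no longer passed without the LysoDC sum of either dataset (0.119 and 0.108), without Ly6C+ monocytes of dataset 1 (0.0643) or without CD43+ monocytes of dataset 2 (0.0729), in a range of 0.00296 to 0.119 over the alternatives.

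Transporters of peptides and of lysosomal products moved in both directions. Slc15a3, a lysosomal histidine and peptide transporter, had 224 and 244 CPM in LysoDCs, against 69.5 and 42.01 in DN cells, 93.0 and 87.4 in CD43+ monocytes and 105 and 72.5 in Ly6C+ monocytes. LysoDCs were above every blood sum, by 1.58 ± 0.14 on the log2 scale against monocytes (adjusted p = 4.04e-06). Its relative Slc15a4 differed less, by 0.32 ± 0.11 (adjusted p = 0.0267), and was highest in CD43+ monocytes. Slc46a3, a carrier of the lysosomal membrane, had 4.48 and 5.73 CPM in LysoDCs, against 31.3 and 36.4 in DN cells, 50.2 and 54.7 in CD43+ monocytes and 25 and 24.2 in Ly6C+ monocytes. It was -2.65 ± 0.15 against monocytes (adjusted p = 2.36e-07), and the heme transporter Slc48a1 was -1.30 ± 0.14 (adjusted p = 1.87e-05). The proton pump of the lysosome, which powers such exporters, was given by a list of 14 subunits tested. Of these, 11 were higher and none lower in LysoDCs than in monocytes, where 29.9% and 27.4% of all genes tested were. The median log2 change of the subunits was 0.75, and Atp6v0c was 1.89 ± 0.13 higher (adjusted p = 6.43e-07).

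Of the 4 sugar transporters 3 were higher in LysoDCs than in monocytes and 1 lower. Only 1, which was higher, had 20 CPM or more in both LysoDCs and monocytes of dataset 1. Slc2a6 (GLUT6), a glucose transporter family member found on lysosomes, had 139 and 139.6 CPM in LysoDCs, against 35.3 and 23.2 in DN cells, 92.1 and 97.4 in CD43+ monocytes and 45.1 and 40.8 in Ly6C+ monocytes (log2 change against monocytes 1.31 ± 0.13, adjusted p = 9.66e-06). Slc37a2, a glucose 6-phosphate carrier of the endoplasmic reticulum, had 22.6 and 30.6 CPM in LysoDCs, against at most 9.77 CPM in any blood sum. Slc45a4 had 43.3 and 48.6 CPM in LysoDCs, against at most 15.02 CPM in any blood sum. Both met the rule in LysoDC gates alone, so no test is given. Slc50a1 was lower (-1.33 ± 0.14, adjusted p = 1.8e-05). The choline transporter-like gene Slc44a2 had 53.7 and 52.96 CPM in LysoDCs, against 98.4 and 62.4 in DN cells, 269 and 245 in CD43+ monocytes and 101 and 84.5 in Ly6C+ monocytes, so that LysoDCs were lowest. Its log2 change was -1.35 ± 0.13 against monocytes (adjusted p = 1.03e-05). Against DN cells it was -0.50 ± 0.15 (adjusted p = 0.0145), and it lost the call without the DN or the LysoDC sum of dataset 1 (adjusted p = 0.211 and 0.128) and without the dataset block (0.054), in a range of 0.00275 to 0.211.

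Of 18 mitochondrial carriers 7 (38.9%) were higher and 6 (33.3%) lower than in monocytes, near the 31.1% and 32.8% of genes at the level of the rule. Slc25a24, an ATP-magnesium phosphate carrier named after its values were seen, was close to absent from LysoDCs at 0.958 and 0.819 CPM (34 and 6 UMIs), against 15.4 to 27.2 CPM in all 6 blood sums. It met the rule in blood cells alone, so no test is given. Slc25a10, the dicarboxylate carrier, had 23.7 and 24.4 CPM in LysoDCs, against at most 6.52 CPM in any blood sum. Slc25a33, a pyrimidine nucleotide carrier, had 20.3 and 19.2 CPM in LysoDCs, against at most 6.16 CPM in any blood sum. Both met the rule in LysoDC gates alone, so no test is given. Mpc1, a subunit of the mitochondrial pyruvate carrier listed with carriers of other names, had 437 and 372 CPM in LysoDCs, against 50.8 to 196 in blood (2.15 ± 0.20, adjusted p = 2.86e-05). In that list of 25 tested genes 10 were higher and 8 lower, where 29.9% and 27.4% of all genes tested were. Family 35 had 1 member higher and 4 lower of 10. At 20 CPM or more in both LysoDCs and monocytes of dataset 1, none of 3 in family 35 passed. Its Slc35e4, a transporter of unknown substrate, had 6 UMIs (0.169 CPM) in LysoDCs of dataset 1 and 0 in dataset 2, against 13 CPM in DN cells, 11.9 in CD43+ monocytes and 22.7 in Ly6C+ monocytes of dataset 2. It met the rule in Ly6C+ monocytes alone, so no test is given. Over a floor of 3 counts in that LysoDC sum, its level was 31.7-fold in DN cells, 29.2-fold in CD43+ monocytes and 55.4-fold in Ly6C+ monocytes. The floor covers counting error of the LysoDC sum only, and not that of the blood sums, with 374, 31 and 118 UMIs in that order.

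**Figure D3:**
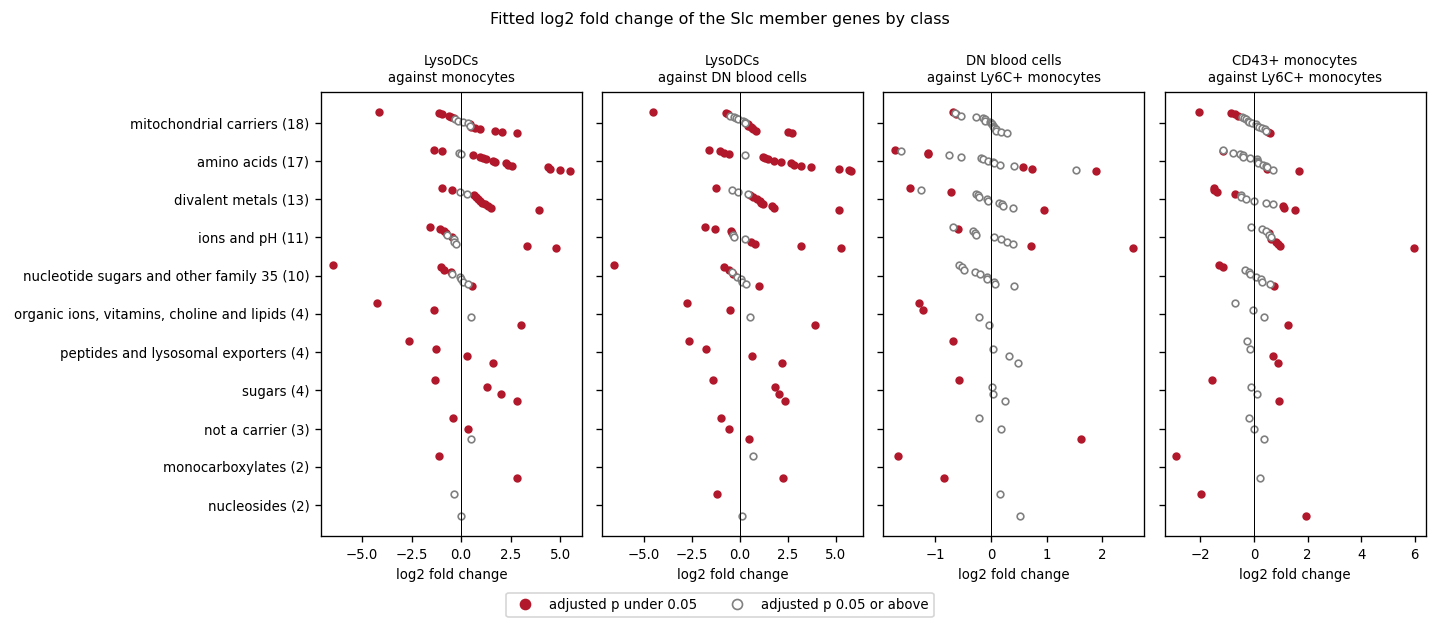
Fitted log2 fold changes of the 88 members by class in the 4 tested comparisons, with class sizes in parentheses; filled points had an adjusted p under 0.05 and open points did not. Amino acid and divalent metal transporters lie mostly right of 0 in both LysoDC panels, and ion transporters mostly right of 0 in the CD43+ panel, where Slc12a2 is the point at 5.96.

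Against DN cells 42 members were higher in LysoDCs, 24 lower, and 22 did not pass, where 26% of all genes tested were higher and 26.1% lower and 27.4% and 29.1% of genes at the level of the rule. The median log2 change was 0.42 over the members and -0.03 over all genes. With both populations at 20 CPM or more, 20 were higher, 7 lower and 7 did not pass. Both LysoDC comparisons use the same LysoDC sums, so their likeness is not a result. Slc29a3, a lysosomal nucleoside transporter, had 26.1 and 31.5 CPM in LysoDCs, against 79.0 and 58.0 in DN cells, a log2 change of -1.18 ± 0.19 (adjusted p = 0.000347). Against monocytes its change was -0.02 ± 0.18, as CD43+ monocytes with 19.1 and 16.6 CPM and Ly6C+ monocytes with 80.1 and 45.6 CPM lay on either side of LysoDCs. The largest log2 rises against DN cells under the naming rule were those of Slc1a2, Slc4a8 (5.28 ± 0.42, adjusted p = 0.000137), Slc7a11, Slc20a1 (3.17 ± 0.23, adjusted p = 3.51e-06) and Slc38a6 (2.83 ± 0.19, adjusted p = 7.27e-07).

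Between DN cells and Ly6C+ monocytes, 7 members (7.95%) were higher in DN cells and 14 (15.9%) lower. Of all genes tested 7.37% were higher and 7.39% lower, and of genes at the level of the rule 8.29% and 9.59%. The count rests on both datasets, since it was 2 without the Ly6C+ sum of dataset 2, 5 without the DN sum of dataset 2, 13 without the Ly6C+ sum of dataset 1 and 13 without the dataset block, against 21. Slc4a7 had 54.0 and 54.8 CPM in DN cells, against 41.02 and 26.7 in Ly6C+ monocytes (0.73 ± 0.19, adjusted p = 0.0258), and the glutamine carrier Slc38a1 had 91.5 and 103 CPM in DN cells, against 67.5 and 65.2 (0.57 ± 0.13, adjusted p = 0.0147). Both were higher in DN cells in each dataset. The cDC2 marker list summed to 1338 and 1792 CPM in DN cells, against 374 and 323 in Ly6C+ monocytes, with 6 of 7 called higher. Most of the DN sum was Cd209a (489 and 747 CPM) and Clec10a (430 and 597 CPM), which had 15.1 and 14.5 CPM in immature cDC2s. Flt3 had 47.7 and 79.0 CPM in DN cells, against 12.1 in Ly6C+ monocytes of each dataset and 104 in immature cDC2s. Zbtb46 had 18.8 and 35.9 CPM, against 0.243 and 0.962 in Ly6C+ monocytes and 63.3 in immature cDC2s. Both Slc genes were highest in immature cDC2s, Slc4a7 at 87.6 CPM and Slc38a1 at 189 CPM. The part of these markers in the result was not tested. Slc15a3 had 69.5 and 42.01 CPM in DN cells, against 105 and 72.5 in Ly6C+ monocytes (-0.68 ± 0.17, adjusted p = 0.0232). Slc25a5 had 314 and 352 CPM in DN cells, against 428 and 617 in Ly6C+ monocytes (-0.63 ± 0.18, adjusted p = 0.0402). None of these 4 calls held without the DN or the Ly6C+ sum of dataset 2, nor without the block, where the adjusted p was 0.0606, 0.0678, 0.0938 and 0.121 in that order of genes; over the alternatives it ran from 0.000323 to 0.474. The NKCC1 gene Slc12a2 had 23.7 and 11.6 CPM in DN cells, against 2.43 and 3.27 in Ly6C+ monocytes, a log2 change of 2.55 ± 0.50 (adjusted p = 0.0241). The summed markers of CD43+ monocytes were higher in DN cells in dataset 1, at 358 CPM, against 151 in Ly6C+ monocytes, and lower in dataset 2, at 176 CPM, against 247. Their part in the result was not tested.

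Between monocyte types, 6 of 11 ion transporters were higher in CD43+ than in Ly6C+ monocytes and none lower. Of the 11, Slc4a2 and Slc9a8 met the rule in CD43+ monocytes alone, and Slc12a2 in CD43+ monocytes and DN cells alone. A member high in CD43+ monocytes alone enters the list through them, so the counts of this comparison are a description. In all, 19 members were higher and 14 lower, against 13.5% and 14.5% of all genes tested and 18% and 19.5% of genes at the level of the rule. The 33 calls became 21 without the Ly6C+ sum and 16 without the CD43+ sum of dataset 2. Slc12a2, the sodium potassium chloride cotransporter NKCC1, had 183 and 235 CPM in CD43+ and 2.43 and 3.27 CPM in Ly6C+ monocytes. Its log2 change was 5.96 ± 0.47 (adjusted p = 0.000456), the largest among the members in this comparison. The test values of Slc12a2 here, and between DN cells and Ly6C+ monocytes, are a description for the same reason. Slc8b1, the mitochondrial sodium calcium exchanger, had 54.0 and 83.6 CPM in CD43+ and 25.5 and 34.4 CPM in Ly6C+ monocytes, a change of 0.98 ± 0.26 (adjusted p = 0.0214). That call was lost without the block (adjusted p = 0.0586) and without either sum of either group, in a range of 4.02e-06 to 0.217.

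Nucleoside transporters went opposite ways between the monocyte types. Slc29a1 (ENT1), the equilibrative transporter of the plasma membrane, had 55.2 and 63.2 CPM in CD43+ and 13.1 and 13.7 CPM in Ly6C+ monocytes (1.94 ± 0.18, adjusted p = 4.9e-05). The lysosomal Slc29a3 had 19.1 and 16.6 CPM in CD43+ and 80.1 and 45.6 CPM in Ly6C+ monocytes (-1.98 ± 0.22, adjusted p = 0.000149). Slc44a2 was 1.27 ± 0.15 higher (adjusted p = 0.000175) and Slc2a6 0.94 ± 0.16 higher (adjusted p = 0.00208) in CD43+ monocytes. The copper transporter genes were lower, Slc31a1 with a log2 change of -1.51 ± 0.19 (adjusted p = 0.000308) and Slc31a2 with -1.38 ± 0.17 (adjusted p = 0.000274).

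Some abundant mitochondrial carriers were lower in CD43+ monocytes. Slc25a4, an ADP/ATP carrier, had 35.7 and 28.9 CPM in CD43+ and 112 and 118 CPM in Ly6C+ monocytes (-2.04 ± 0.19, adjusted p = 4.22e-05). Slc25a3 had 263 and 276 CPM in CD43+ and 403 and 440.4 CPM in Ly6C+ monocytes (-0.85 ± 0.17, adjusted p = 0.00372). Slc25a5 had 388 and 392 CPM in CD43+ and 428 and 617 CPM in Ly6C+ monocytes, a change of -0.61 ± 0.18 (adjusted p = 0.0276) that was lost without Ly6C+ monocytes of dataset 2 (0.334), without CD43+ monocytes of either dataset (0.0544 and 0.261) and without the block (0.0812), in a range of 0.00393 to 0.334. Of 18 mitochondrial carriers 2 were higher and 4 lower. Erythroid markers summed to 406 CPM in CD43+ monocytes of dataset 2, against 0.577 CPM in Ly6C+ monocytes there, and to 27.4 CPM in CD43+ monocytes of dataset 1, against 4.37 CPM in Ly6C+ monocytes. Of the stromal list, Pecam1, a gene of endothelium and some leukocytes, had 99.2 and 175 CPM in CD43+ and 6.55 and 2.31 CPM in Ly6C+ monocytes, while Pdgfrb had 8.09 CPM or less and Col1a1 and Col3a1 were at 0 in all 4 monocyte sums. The part of these markers in the result was not tested.

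LysoDC and cDC2 gates could be compared in dataset 1 alone, with 1 sum per gate and so no test. Intervals of ratios there are exact 95% intervals for counting error only. In mature against immature LysoDCs no member of 62 at 20 CPM or more in either gate differed by 2-fold or more, where 1.4% of genes were 2-fold higher and 0.402% lower. In follicular against immature LysoDCs it was likewise 0 of 61, where 0.268% were higher and 0.306% lower. Smaller differences lay beyond counting error. Slc7a11 had 137 and 143 CPM in follicular and immature LysoDCs and 174 and 179 CPM in intermediate and mature LysoDCs, a ratio of 1.25 (1.15 to 1.36) for mature over immature. Slc1a2 ran the other way, with 155, 137, 116.9 and 109.97 CPM through the same gates (0.805, 0.731 to 0.885, for mature over immature).

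Slc43a2, with 77.5, 65.2, 49.9 and 47.2 CPM in follicular, immature, intermediate and mature LysoDCs, had a ratio of mature over immature of 0.724 (0.626 to 0.835). Slc38a6 had 67.2, 51.7, 48.97 and 43.1 CPM, and Slc25a51, the mitochondrial NAD carrier, had 54.5, 40.0, 37.1 and 30.4 CPM, both highest in follicular cells with ratios over immature of 1.30 (1.14 to 1.49) and 1.36 (1.17 to 1.59). The calcium exchanger gene Slc8a1 had 58.5 CPM in mature LysoDCs, against 46.8 in immature LysoDCs (1.25, 1.082 to 1.44), and Slc25a11, the oxoglutarate carrier, 91.2, against 78.9 (1.16, 1.03 to 1.29). Lower in mature LysoDCs were Slc20a1, with 87.1 CPM, against 115 (0.757, 0.680 to 0.841), and Slc31a2, with 50.0 CPM, against 64.0 (0.781, 0.678 to 0.900). Between follicular and immature LysoDCs the other named ratios were 1.24 for Slc45a4, 1.19 for Slc38a10, 0.838 for Slc25a39, a mitochondrial glutathione transporter, 0.852 for Slc2a6, 0.852 for Slc20a1 and 0.865 for Slc25a11. Across the order follicular, immature, intermediate, mature, 19 members fell at each step and 7 rose, where 12.4% and 13% of genes at the level of the rule did. Slc46a3 stood at 2.67, 1.37, 3.09 and 14.1 CPM, so that mature LysoDCs had 86 UMIs, against 12 in immature LysoDCs, and it was named after its values were seen. Genes of other cells were higher too. Epcam, at 386 CPM in immature cDC2s, had 53.4 CPM in mature LysoDCs, against 1.71 in immature LysoDCs, while Krt8, Krt18 and Cdh1 had under 1 CPM each in both. The cDC2 gene Flt3 had 8.01 CPM in mature LysoDCs, against 0.797 in immature LysoDCs, Zbtb46 7.03, against 1.94, and Kmo 22.1, against 4.33. The plasma cell gene Jchain had 49.02 CPM in mature LysoDCs, against 2.85 in immature LysoDCs, and Mzb1 44.6, against 3.19. Their part in the level of Slc46a3 was not tested.

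**Figure D4:**
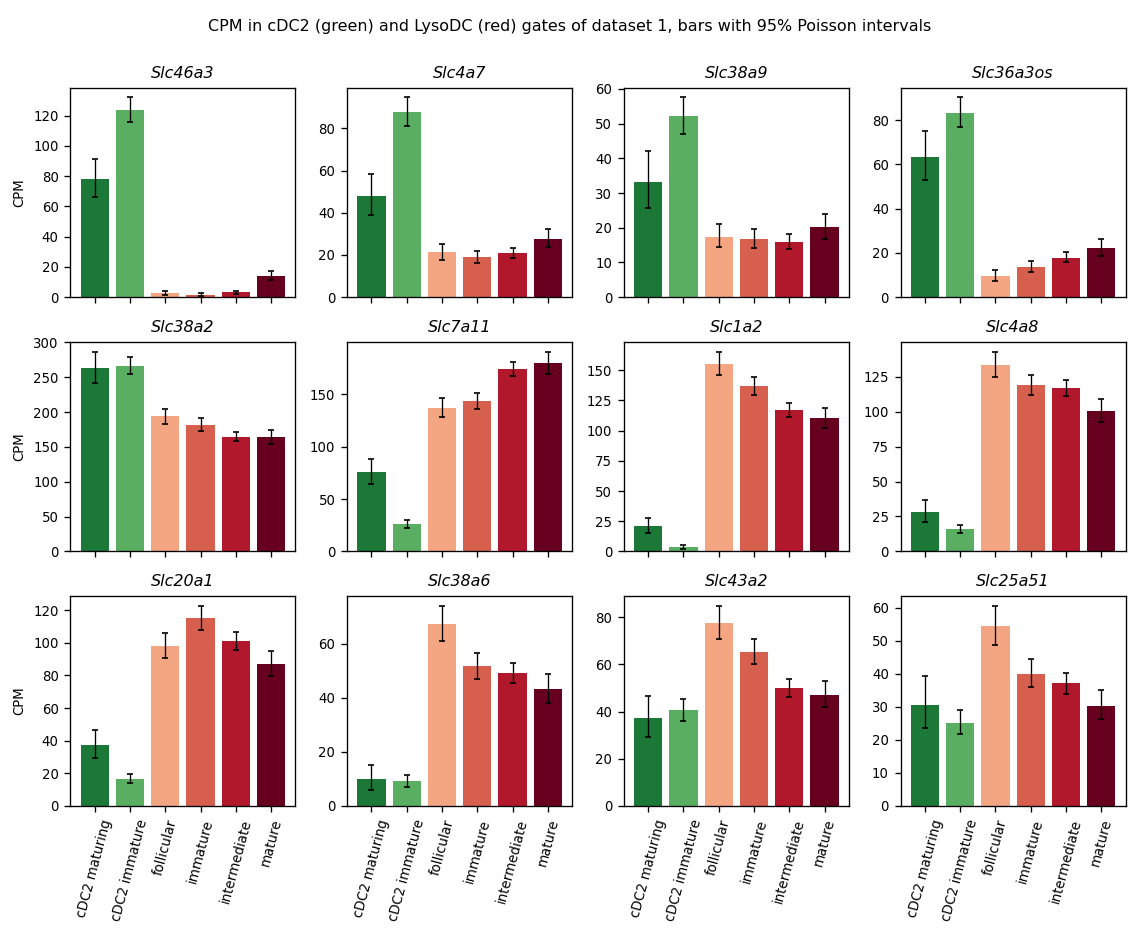
CPM of 12 members in the cDC2 gates (green) and the LysoDC gates (red) of dataset 1, with bars from 0 and exact 95% Poisson intervals for counting error. Slc46a3 is at 124 CPM in immature cDC2s and at 14.1 CPM or less in LysoDC gates, and Slc7a11 at 179 CPM in mature LysoDCs is 75.7 CPM in maturing cDC2s.

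Immature cDC2s differed from immature LysoDCs in many carriers. Of 72 members at 20 CPM or more in either gate, 12 were 2-fold or more higher than in immature LysoDCs and 21 lower, where 12.7% of genes were higher and 10.6% lower. The median log2 ratio was -0.30 over the members and 0.25 over all genes at that level. Slc46a3 had 124 CPM in immature cDC2s, against 1.37 in immature LysoDCs, a ratio of 90.6 (51.6 to 176). Slc4a7 had 87.6 CPM, against 18.8 (4.66, 3.93 to 5.57), Slc36a3os had 83.4 CPM, against 13.7 (6.11, 5.02 to 7.49), and Slc38a9 had 52.1 CPM, against 16.6 (3.13, 2.58 to 3.82). These 4 genes were low in LysoDCs and higher in cDC2s, and Slc46a3, Slc4a7 and Slc38a9 were also higher in blood cells than in LysoDCs, as given above. The GABA transporter Slc6a13 had 28.5 CPM, against 2.16 (13.2, 8.24 to 22.3), and was named after its values were seen.

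Several carriers high in LysoDCs were low in immature cDC2s. Slc1a2 had 3.499 CPM in immature cDC2s, against 137 in immature LysoDCs (0.0256, 0.0167 to 0.0377), a share below that of C1q RNA. Slc4a8 had 15.7 CPM, against 119 (0.133, 0.109 to 0.161), Slc20a1 had 16.6 CPM, against 115 (0.144, 0.118 to 0.174), and Slc38a6 had 9.02 CPM, against 51.7 (0.174, 0.133 to 0.226). Slc7a8 had 1.48 CPM, against 36.2, and Slc7a7 14.3 CPM, against 74.4. The heavy chain Slc3a2 differed less, with 141 CPM in immature cDC2s, against 211 in immature LysoDCs. Slc38a2 was higher in immature cDC2s, at 266 CPM, against 182.

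Maturing and immature cDC2s were alike in most members. Of 56 at 20 CPM or more in either gate, 3 were 2-fold higher and 1 lower, where 1.31% and 0.665% of genes were. Slc7a11 had 75.7 CPM in maturing cDC2s, against 26.2 in immature cDC2s (2.88, 2.32 to 3.58), Slc1a2 had 20.8 CPM, against 3.499 (5.94, 3.56 to 10.1), and Slc20a1 had 37.1 CPM, against 16.6 (2.24, 1.66 to 3.01). All 3 are carriers that were high in LysoDCs, and C1q RNA moved with them, at 3101 CPM in maturing cDC2s, against 606 CPM in immature cDC2s. Their level in maturing cDC2s was 47.1% of that in all LysoDCs for Slc7a11, 36.5% for Slc20a1 and 16.3% for Slc1a2, against 17.7% for C1q, and the part of LysoDC RNA in them was not tested. Slc4a7 had 47.96 CPM in maturing cDC2s, against 87.6 (0.547, 0.438 to 0.679), and Slc46a3, Slc29a3 and Slc38a9 were also lower, with ratios of 0.631, 0.594 and 0.636. Slc25a5 had 306.1 CPM in maturing cDC2s, against 272 in immature cDC2s (1.12, 1.03 to 1.23), and Slc25a3 had 396 CPM, against 355 (1.12, 1.03 to 1.21).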

How the data were processed

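Values in the deposited matrices are raw UMI counts of genes and hashtags in each cell barcode, with no normalization by the authors. Per the file headers cellranger 6.0.1 wrote them, and the submitters' processing notes list Cell Ranger 2.0.0 and mm10. Within each dataset, HTODemux (Seurat 5.3.0, quantile 0.99) assigned hashtags. In dataset 1 it gave 8343 single, 2422 multiple (doublets, left out) and 1113 unassigned among 11878 barcodes, and in dataset 2 it gave 8516, 4572 and 23 among 13111. Singlets needed 1000 UMIs, 500 genes and no more than 10% mitochondrial UMIs, which left 7217 and 7470 cells. Counts were summed per population and dataset. The 4 populations of both datasets (8 sums) were tested with edgeR 4.0.16 (R 4.3.3; quasi-likelihood with robust moderation, TMM, filterByExpr, dataset as a block, 3 residual degrees of freedom, biological coefficient of variation 0.141), with Benjamini-Hochberg adjustment over 11458 genes at 0.05, two-sided; the procedure was tested on simulated data. SE in the text is the standard error of the fitted log2 change. The block follows the design, since blood populations of a dataset share their pool of mice. Dataset 1 gates were compared as CPM ratios with exact conditional intervals. Alternatives were RLE scaling, DESeq2 1.42.0, no filter on low counts, no block, another hashtag call, k-means in HTODemux (added after the hashtag calls were seen), a limit of 5% mitochondrial UMIs, leaving out each sum, other levels for the rule, and TMM across the 9 populations. Positions come from a GRCm38 annotation, by gene ID, for all 88 members.

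Members and lists were chosen with earlier results of these data known. Per tested comparison the text names the 5 largest changes each way at 50 CPM or more that passed and had the same sign in both datasets (4 each way for untested comparisons, with intervals off 1), and class leaders; other members the text names were chosen after their values were seen. A member that this rule names is not reported here, though counts include it. Counting intervals and floors cover counting error only.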

Additional observations from a re-analysis of the deposited data

How the results depend on the processing

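Of the 21 members called between DN cells and Ly6C+ monocytes, the fit without the dataset block (the replicate block of the design) gave 13; it gave 59, 57 and 23 for LysoDCs against monocytes, LysoDCs against DN cells and CD43+ against Ly6C+ monocytes, where the blocked fit gave 66, 66 and 33. Leaving out each sum in turn gave 2 to 27 for DN cells against Ly6C+ monocytes, 16 to 38 for CD43+ against Ly6C+ monocytes, 51 to 71 for LysoDCs against monocytes and 49 to 66 for LysoDCs against DN cells; a population left with 1 sum is assumed to vary like the others. DESeq2 gave 62, 60, 17 and 28 for LysoDCs against monocytes, LysoDCs against DN cells, DN cells against Ly6C+ monocytes and CD43+ against Ly6C+ monocytes. A level of 40 CPM left 49 members, and one of 10 CPM gave 130. No named value changed its direction. Of the named genes' values under alternatives other than leaving out a sum, 333 kept their side, 7 lost the call without the block, and 4 ratios of immature cDC2s over immature LysoDCs moved beyond their intervals: log2 1.96 for Slc4a7 with TMM across gates, and -4.35 for Slc1a2, -2.64 for Slc4a8 and -2.49 for Slc20a1 with the other hashtag call. The cause was not tested. With 2 pools per population and 1 sum per gate, small differences between gates cannot be set against a spread of mice.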
